A study of Mus musculus with 12 samples.

Results

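The members described here are 387 genes of mouse chromosome 13, measured in haploid and diploid epiblast stem cells. Each gene was represented by its brightest probe set with a single gene symbol. A gene was kept when the mean log2 signal of that probe set over all 12 arrays was at or above 5.97, a signal of 62.6 and the median of all non-control probe sets. The array held 702 genes of chromosome 13, of which 391 reached this level. Fst, Tgfbi, Id4 and Msx2 were left out by the rule, which left 387 members among 11105 genes tested on all chromosomes. The members just inside the threshold were 5033430I15Rik at a mean signal of 62.6, Nkapl at 63.2 and C230035I16Rik at 64.2. The genes just outside it were Foxd1 at 61.9, Barx1 at 61.5 and Ccno at 60.7. The chromosome was picked with its differences between the cell lines already known from these arrays, so its medians and counts are a description and carry no test. The members were thus selected on their mean signal, on a chromosome chosen by its line deviations.

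Total RNA was hybridised to 12 Affymetrix mouse 430 2.0 arrays, 3 labelled biological replicates for each of 4 groups. Diploid EpiSC-1 and diploid EpiSC-2 were of the B6D2F1 strain, a cross of the C57BL/6 and DBA/2 strains. Haploid EpiSC-1 and haploid EpiSC-2 were of the 129Sv strain. The numbers 1 and 2 in these names were taken to mark different cell lines of a ploidy. All cells were grown in N2B27, a serum-free medium, with bFGF and Activin A. Ploidy and strain divide the arrays in the same way and cannot be told apart. Nothing in the labels says how the lines were derived or whether a line was a clone, and DNA copy number was not measured by these arrays. In bulk RNA, fewer cells of a type and less RNA per cell cannot be told apart.

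Epiblast stem cells are pluripotent cells that resemble the epiblast after implantation, and they depend on FGF and Activin signalling. A haploid mammalian cell carries a single copy of each chromosome, and haploid cultures are known to drift towards a diploid state unless they are sorted. Mouse chromosome 13 carries large gene families in clusters, among them replication-dependent histones, prolactin relatives, serpins and KRAB zinc finger genes, between housekeeping genes of many kinds.

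Promoters of 4 members are printed because these genes mark the pattern that follows. Emb was the member most higher in haploid EpiSC-2 when the haploid lines were compared, Heatr1 and Cdk7 belong to groups whose members were low in haploid EpiSC-1, and Ctla2a differed most the other way. The sequences are the 250 bases before the annotated start, 5′ to 3′ on the strand of the gene, from RefSeq on GRCm38.p6. Capitals mark GGGCGG (the GC box), CCAAT or TATAAA on either strand. Emb lies on the plus strand (chr13:117220323-117220572), Heatr1 on the plus strand (chr13:12395125-12395374), Cdk7 on the minus strand (chr13:100730943-100731192), and Ctla2a on the minus strand (chr13:60936626-60936875, the first of 2 starts in the table).
Emb: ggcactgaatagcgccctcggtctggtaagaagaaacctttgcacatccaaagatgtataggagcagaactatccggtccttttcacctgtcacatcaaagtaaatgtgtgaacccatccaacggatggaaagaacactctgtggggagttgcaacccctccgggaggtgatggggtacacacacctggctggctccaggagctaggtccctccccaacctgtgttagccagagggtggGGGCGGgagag
Heatr1: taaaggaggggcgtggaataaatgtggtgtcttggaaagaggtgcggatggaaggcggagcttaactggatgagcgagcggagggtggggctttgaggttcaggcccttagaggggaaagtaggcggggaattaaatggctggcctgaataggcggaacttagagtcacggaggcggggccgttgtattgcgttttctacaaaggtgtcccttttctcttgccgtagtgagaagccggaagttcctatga
Cdk7: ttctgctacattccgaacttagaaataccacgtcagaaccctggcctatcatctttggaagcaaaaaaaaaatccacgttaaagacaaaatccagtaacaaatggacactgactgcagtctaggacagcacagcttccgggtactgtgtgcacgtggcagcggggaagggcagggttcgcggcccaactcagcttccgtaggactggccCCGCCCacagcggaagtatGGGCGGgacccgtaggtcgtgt
Ctla2a: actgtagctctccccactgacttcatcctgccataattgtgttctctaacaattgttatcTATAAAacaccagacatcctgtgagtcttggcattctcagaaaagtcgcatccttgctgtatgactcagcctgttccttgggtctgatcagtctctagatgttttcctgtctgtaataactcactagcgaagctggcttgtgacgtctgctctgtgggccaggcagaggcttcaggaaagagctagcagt
The Emb promoter held 1 GGGCGG and 6 CG dinucleotides, and the Cdk7 promoter held 2 and 14. The Heatr1 promoter held none of the 3 motifs and 13 CG dinucleotides, while the Ctla2a promoter held 1 TATAAA and 3. The table held 420 promoters of 341 members. GGGCGG occurred in 58.6% of them, CCAAT in 34.0% and TATAAA in 6.90%, against 59.5%, 35.5% and 6.26% of the 11606 promoters of tested genes and 32.7%, 33.8% and 12.4% of all 32851 promoters. Among promoters of members called lower in haploid EpiSC-1, as defined next, GGGCGG occurred in 57.6%, CCAAT in 34.1% and TATAAA in 5.17% of 290 promoters of 236 genes. Among members called higher the shares were 66.7%, 37.9% and 15.2% of 66 promoters of 58 genes. These matches describe letters in the window and no factor's binding.

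Array medians lay between 63.4 and 76.3 signal units, and the 2% trimmed mean was 500.0 on every array. All 14 epiblast markers, among them Pou5f1 and Sox2, reached the signal threshold. They did not move together: in haploid EpiSC-1, Fgf5 and Otx2 had mean signals of 83.3 and 73.8, against at least 2130.7 in each of the other lines, while Sox2 was highest there, at 4537 against 1004 to 3382. The summed signal of the list was 92084 to 95774 in diploid EpiSC-1, 77059 to 79684 in diploid EpiSC-2, 39282 to 39609 in haploid EpiSC-1 and 58909 to 61180 in haploid EpiSC-2. Of 21 fibroblast markers on the array, 19 reached the threshold. By line, 9 reached it in diploid EpiSC-1, 14 in diploid EpiSC-2 and 20 in each haploid line, so some passed only through the haploid arrays. The summed signal of the fibroblast list was 11272 to 12139 in diploid EpiSC-1, 39860 to 40364 in diploid EpiSC-2, 75609 to 76937 in haploid EpiSC-1 and 70882 to 72249 in haploid EpiSC-2. These markers did not move together either. Fn1, Col3a1 and Col1a2 were highest in haploid EpiSC-1 (10907, 8142 and 6316), but Acta2, Tagln and Col5a2 in haploid EpiSC-2 (12963, 6064 and 1068). Vim was highest in diploid EpiSC-2 (19162) and Thy1 in diploid EpiSC-1 (202). Summed signals of trophoblast, primitive endoderm and neural markers were highest in diploid EpiSC-2 (27495 to 29023), haploid EpiSC-2 (3619 to 4119) and diploid EpiSC-2 (2006 to 2676). The neural sum of haploid EpiSC-2, at 1961 to 2293, overlapped that of diploid EpiSC-2. The trophoblast sum there rested mainly on the keratin genes Krt8 (14304) and Krt18 (12513). Cdx2, Gata3 and Tfap2c were highest in haploid EpiSC-1 (987, 468 and 592), Plet1 and Hand1 in diploid EpiSC-2, and Eomes in haploid EpiSC-2. Among neural markers, Nes, Tubb3 and Map2 were highest in diploid EpiSC-2, but Sox1 and Pax3 in haploid EpiSC-2 (182 and 203). The epiblast sum was thus lowest and the fibroblast sum highest in haploid EpiSC-1, and their part in the results for chromosome 13 was not tested.

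Genes of chromosome 13 were mostly lower in haploid EpiSC-1 than in the other lines. The deviation of a line is its mean log2 signal for a gene minus the mean of the 4 line means. The median deviation of the members was -0.35 in haploid EpiSC-1, against 0.03 over all tested genes. It was -0.34, -0.32 and -0.35 on the 3 arrays of that line, taken singly. The other lines had medians of 0.12 in diploid EpiSC-1, 0.14 in diploid EpiSC-2 and 0.09 in haploid EpiSC-2. The 4 deviations of a gene sum to 0, so these small positive medians are tied to the negative value of haploid EpiSC-1. On single arrays, the medians of the other 3 lines ran from 0.09 to 0.18, so no array of another line came near those of haploid EpiSC-1. The spread among members was wide: in haploid EpiSC-1 the 10th percentile was -0.86 and the 90th was 0.35.

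**Figure D1:**
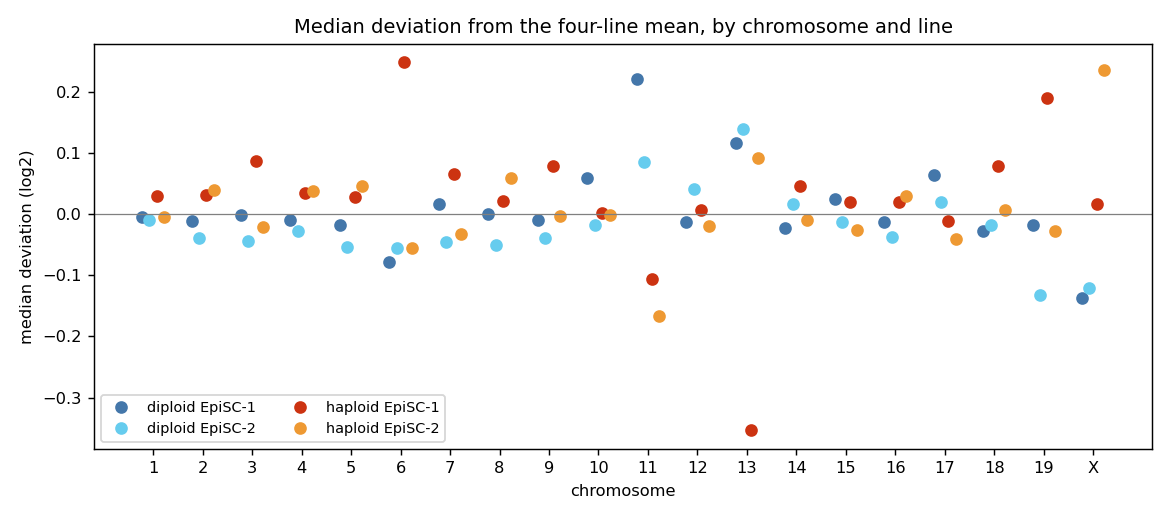
Median deviation from the four-line mean (log2 units) of the tested genes of each chromosome, by cell line. Chromosome 13 in haploid EpiSC-1, at -0.35, lies below the other 19 chromosomes in that line, whose medians run from -0.11 to 0.25.

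No other chromosome had a median as low in any line. In haploid EpiSC-1 the medians of the other 19 chromosomes ran from -0.11 on chromosome 11 to 0.25 on chromosome 6. In diploid EpiSC-1 they ran from -0.14 on the X chromosome to 0.22 on chromosome 11, and in diploid EpiSC-2 from -0.13 on chromosome 19 to 0.09 on chromosome 11. In haploid EpiSC-2 they ran from -0.17 on chromosome 11 to 0.24 on the X chromosome. The deviation of haploid EpiSC-1 was below 0 for 299 of 387 members, or 77.3%, against 46.9% of all tested genes.

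Calls were made with limma at a Benjamini-Hochberg adjusted p under 0.05 over all tested genes. In haploid EpiSC-1, 328 members (84.8%) were called, where 69.8% of all tested genes were. Of these, 267 members (69.0%) were lower than the four-line mean and 61 (15.8%) higher, where 32.3% and 37.5% of all tested genes were called. The 3 arrays of haploid EpiSC-1 lay below the 9 other arrays for 179 members, or 46.3%, against 15.4% of all tested genes. They lay above the 9 others for 18 members, or 4.65%, against 19.7%. In diploid EpiSC-1, 192 members were called higher and 95 lower, with 34.3% and 32.1% of all tested genes called. In diploid EpiSC-2 the numbers were 195 and 69, with 30.3% and 34.1% of all tested genes called. In haploid EpiSC-2 they were 169 and 47, with 29.1% of all tested genes called in each direction. Calls in either direction numbered 287 in diploid EpiSC-1, 264 in diploid EpiSC-2 and 216 in haploid EpiSC-2, where 66.4%, 64.4% and 58.2% of all tested genes were called. The 3 arrays of haploid EpiSC-2 lay below all 9 others for 2 members, against 9.12% of all tested genes. For diploid EpiSC-1 this held for 49 members, against 13.3%, and for diploid EpiSC-2 for 14, against 11.9%.

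**Figure D2:**
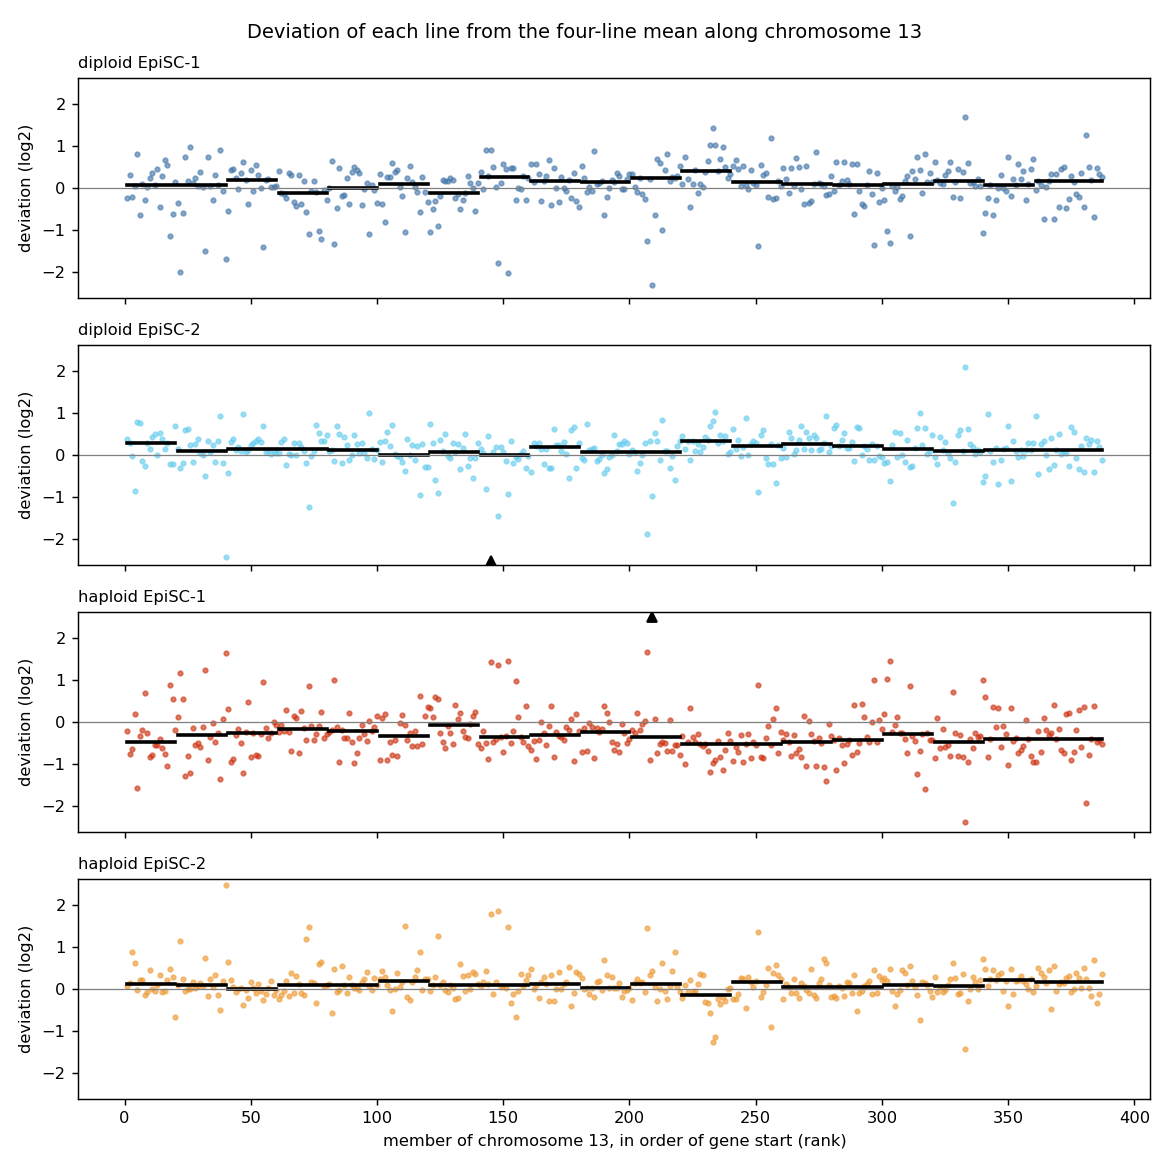
Deviation of each member from the four-line mean (log2 units) against its rank in order of gene start on chromosome 13, 1 panel a line, with medians of blocks of 20 members as lines. In haploid EpiSC-1 every block median is below 0, from -0.52 to -0.07; triangles mark the members beyond the axis, Fbxw17 in diploid EpiSC-2, and Ctla2a in haploid EpiSC-1.

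The low level ran along the whole order of genes. Members were split in order of gene start into 19 blocks of 20, with 27 in the last. In haploid EpiSC-1 the block median was below 0 in 19 of 19 blocks, from -0.52 to -0.07. The lowest were the block from Habp4 to Zfp748 and its neighbour from Zfp729b to Brd9, both at -0.52. The first of these was also the lowest block in haploid EpiSC-2, at -0.13, while the second was at 0.17 there. Haploid minus diploid, their medians were -0.62 and -0.42. The weakest in haploid EpiSC-1 was the block from Atxn1 to Ippk, with 9 members called lower and 6 called higher. Block medians below 0 numbered 3 in diploid EpiSC-1, 1 in diploid EpiSC-2 and 2 in haploid EpiSC-2. With blocks of 10 members, 37 of 38 medians were below 0 in haploid EpiSC-1, and with blocks of 40, 10 of 10 were.

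The first and the last member of the order both differed between the haploid lines. Gdi2, which recycles Rab GTPases, is the first member, with a difference of 0.28 ± 0.04 (SE; adjusted p = 1.35e-05) for haploid EpiSC-2 minus haploid EpiSC-1. Zfp131, a BTB zinc finger gene, is the last, with 0.87 ± 0.07 (SE; adjusted p = 1.23e-07). Among the last 3 members, 4833420G17Rik missed the threshold in this comparison, at 0.15 (limma adjusted p = 0.0911). The longest run of neighbours below the four-line mean in haploid EpiSC-1 held 26 members, from Mfsd14b to Ice1, with a median deviation of -0.55. Of these, the 21 from Mfsd14b to Fastkd3 were all called lower. The next runs held 17 members, from Rhobtb3 to Cox7c, and 11, from Mccc2 to Slc30a5. The longest run above the four-line mean held 6 members, from Dtnbp1 to Cap2, with a median of 0.35. Across the chromosome the order thus held long low stretches broken by single genes and short groups that went the other way.

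The haploid lines share ploidy and strain, so their comparison sets the low line against the nearest labelled match. The median difference, haploid EpiSC-2 minus haploid EpiSC-1, was 0.42 for the members and -0.05 for all tested genes. In all 261 members (67.4%) were called, where 56.6% of all tested genes were. The difference was called higher in haploid EpiSC-2 for 242 members and lower for 19. These are 62.5% and 4.91% of the members, where 25.7% and 31.0% of all tested genes were called. The 3 arrays of haploid EpiSC-2 lay above the 3 of haploid EpiSC-1 for 248 members, with 28.3% of all tested genes doing so, and below them for 23, with 35.3%. The median lay above 0 in 19 of 19 blocks, from 0.24 to 0.58. Among the other 19 chromosomes the median ran from -0.31 on chromosome 6 to 0.25 on the X chromosome. The middle of the members' distribution ran from 0.13 at the 25th percentile to 0.71 at the 75th, and 34 members were at least 2-fold higher in haploid EpiSC-2.

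**Figure D3:**
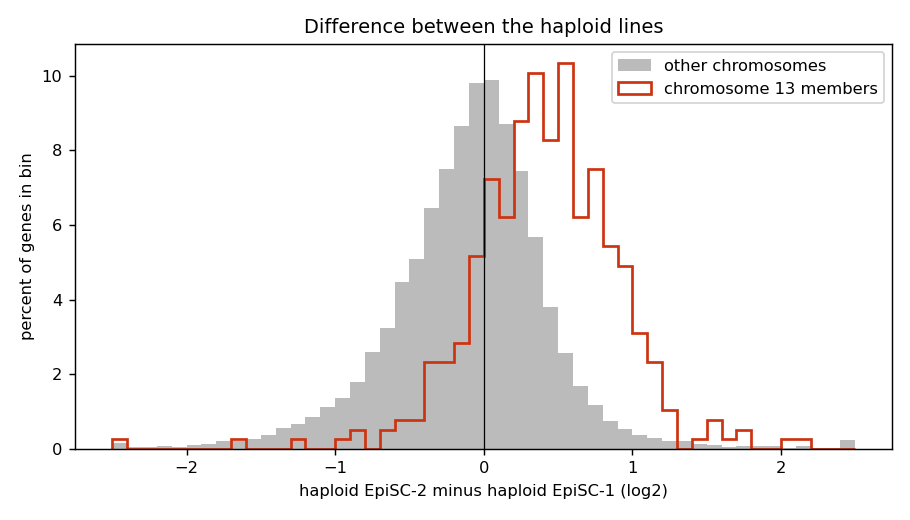
Distribution of the log2 difference between the haploid lines (haploid EpiSC-2 minus haploid EpiSC-1) for the members and for the tested genes of other chromosomes, with values beyond 2.5 in either direction drawn at the edge. The members centre on 0.42, and 63 of 387 (16.3%) lie below 0, against 55.8% of the genes of other chromosomes.

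A measure that did not enter the choice of members is the second-brightest probe set of the same gene, read from the same RNA. Of 197 members with such a probe set above the signal threshold, 174 differed between the haploid lines in the same direction as on the brightest. The median difference was 0.44 on the second probe sets and 0.43 on the brightest. Of 142 of these members called between the haploid lines, 140 kept the direction. In haploid EpiSC-1, 146 of the 197 second probe sets were below the four-line mean. The same counts were not made over all tested genes, so they describe how probe sets of a gene agreed and are no test of the chromosome.

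The members were also split by mean signal into 3 equal groups. In the dimmest 129 members, with mean signals of 62.6 to 408, the median deviation in haploid EpiSC-1 was -0.26, and 64 were called lower and 30 higher. In the middle 129 the median was -0.34, with 94 lower and 20 higher. In the brightest 129, with mean signals of 1273 to 21684, it was -0.42, with 109 lower and 11 higher. The standard deviation across members was 0.71 in the dimmest group and 0.37 in the brightest. Bright members thus varied less in this line than dim ones. All tested genes also moved down with the stricter signal filter (mean log2 of at least 8.72). Their share called lower in haploid EpiSC-1 was 40.6%, against 32.3% at the main filter, and their median -0.02, against 0.03. Calls and spread of all tested genes were not split by signal. The trend is thus not shown to be particular to this chromosome, and it was not tested.

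**Figure D4:**
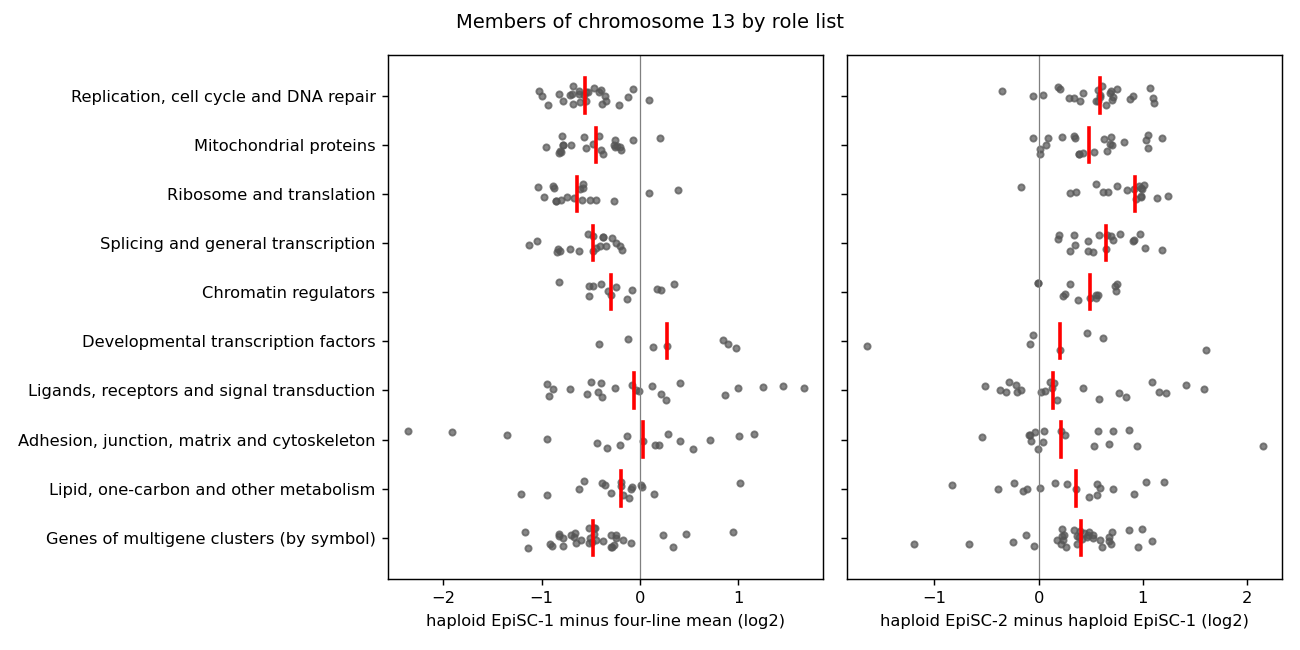
Deviation of haploid EpiSC-1 from the four-line mean (log2 units) for members of 10 role lists, each point a gene and each bar the list's median, with the difference between the haploid lines in the right panel. Medians in the left panel run from -0.64 for ribosome and translation to 0.28 for the developmental transcription factors.

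The counts of each role list are to be read against the chromosome's own level: 69.0% of all members were called lower in haploid EpiSC-1 and 15.8% higher, and 62.5% were called higher in haploid EpiSC-2 between the haploid lines. Over all tested genes these shares were 32.3%, 37.5% and 25.7%. Differences between lists were not tested, and 7 list entries under older symbols (Tut7, Tent4a, Tent2, Macroh2a1, Erbin, Cert1 and Ero1b) are not in the counts.

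The list named for ribosome production and translation had the lowest median of the 10 role lists in haploid EpiSC-1. It also holds the nuclear import receptor genes Tnpo1 and Ipo11 and the ankyrin-repeat gene Ankra2. Of 18 members in this list, 16 (88.9%) were called lower than the four-line mean and 1 higher, with a median deviation of -0.64. Between the haploid lines, 17 (94.4%) were called higher in haploid EpiSC-2, with a median difference of 0.92. Heatr1 encodes a nucleolar protein needed for ribosomal RNA synthesis. Its signals were 3010.4, 2882 and 3076 in diploid EpiSC-1, 2461, 2472 and 2583 in diploid EpiSC-2, 966, 1017 and 1029.5 in haploid EpiSC-1 and 2429, 2395 and 2289 in haploid EpiSC-2. All 3 arrays of haploid EpiSC-1 lay below the 9 others, and the haploid lines differed by 1.24 ± 0.05 (SE; adjusted p = 4.34e-11). On its second probe set the difference was 0.76.

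Other members of this list were lower in haploid EpiSC-1 as well. Nsun2, an RNA cytosine methyltransferase that acts on tRNAs, had signals of 2743, 2610.4 and 2591 in haploid EpiSC-1 and 5167, 5292 and 5564 in haploid EpiSC-2. Its signals were 6455, 6429 and 6253 in diploid EpiSC-1 and 5659, 5645 and 5899.6 in diploid EpiSC-2. The haploid lines differed by 1.01 ± 0.04 (SE; adjusted p = 9.15e-11). Iars, the cytoplasmic isoleucyl-tRNA synthetase, differed by 0.99 ± 0.04 (SE; adjusted p = 1.10e-10). Nol7, a nucleolar protein, differed by 0.76 ± 0.03 (SE; adjusted p = 3.84e-10). Utp15, a part of the complex that processes the small-subunit rRNA, differed by 1.13 ± 0.08 (SE; adjusted p = 1.84e-08), and Rpp40, a ribonuclease P subunit, by 0.99 ± 0.08 (SE; adjusted p = 1.42e-07). Paip1, which binds the poly(A)-binding protein, was the member called higher. Its deviation in haploid EpiSC-1 was 0.39, and signals were 849.6, 916 and 893 in diploid EpiSC-1, 1741, 2039 and 1805 in haploid EpiSC-1 and 2320.1, 2325 and 2203 in haploid EpiSC-2. Its second probe set went the other way, with a deviation of -0.69 in haploid EpiSC-1. Ankra2, an ankyrin-repeat gene, deviated by 0.09 and was not called, and its second probe set deviated by -0.98.

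The 19 members matched to the list for splicing and general transcription were all called lower in haploid EpiSC-1, with a median deviation of -0.48. With Tut7, Tent4a and Tent2, entered under older symbols, it was 20 of 22. Of the 19, 18 (94.7%) were called higher in haploid EpiSC-2 when the haploid lines were compared. Polr3g, an RNA polymerase III subunit that is abundant in pluripotent cells, had signals of 592, 700.1 and 698 in haploid EpiSC-1 and 1192, 1345 and 1205 in haploid EpiSC-2. In the diploid lines they were 2213, 2208 and 2248 and, in diploid EpiSC-2, 2414, 2403 and 2329. Both haploid lines lay below both diploid lines, and haploid EpiSC-1 lay lowest. Smn1, which assembles the spliceosomal snRNPs, differed between the haploid lines by 1.18 ± 0.11 (SE; adjusted p = 4.62e-07). The RNA helicase gene Ddx41 differed by 0.97 ± 0.11 (SE; adjusted p = 3.52e-06). Ell2, an elongation factor of RNA polymerase II, differed by 1.02 ± 0.05 (SE; adjusted p = 1.28e-09) on its brightest probe set, and by 0.75 with the mean of all its probe sets, where the call was lost (adjusted p = 0.217, the highest over the alternatives).

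Genes of replication, the cell cycle and DNA repair had a median deviation of -0.56 in haploid EpiSC-1. Of 26 members, 24 (92.3%) were called lower there and 1 higher, and 21 (80.8%) were called higher in haploid EpiSC-2 when the haploid lines were compared. Cdk7 is the kinase of the Cdk-activating complex and of TFIIH, and it is also counted in the list for transcription. Its signals were 3427, 3263 and 3650.5 in diploid EpiSC-1, 3454, 3774 and 3475 in diploid EpiSC-2, 2051, 2101 and 1949 in haploid EpiSC-1 and 3783, 3665 and 3961 in haploid EpiSC-2. Haploid EpiSC-1 stood alone, while haploid EpiSC-2 reached above most diploid arrays, and the haploid lines differed by 0.90 ± 0.05 (SE; adjusted p = 4.96e-09). Ccnh, the cyclin partner of Cdk7, lies elsewhere in the order and differed by 0.70 ± 0.05 (SE; adjusted p = 1.58e-08).

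E2f3, a transcription factor of S-phase genes, was also lowest in haploid EpiSC-1. Its signals were 1290.4, 1489 and 1322 in diploid EpiSC-1, 1138, 1003 and 1145 in diploid EpiSC-2, 675, 724 and 656 in haploid EpiSC-1 and 1389, 1535 and 1375 in haploid EpiSC-2. Between the haploid lines the difference was 1.06 ± 0.07 (SE; adjusted p = 2.80e-08), and 0.34 on its second probe set. The phosphatase gene Cdc14b differed by 1.10 ± 0.05 (SE; adjusted p = 1.81e-10), and Gmnn, the inhibitor of replication licensing, by 0.43 ± 0.04 (SE; adjusted p = 3.11e-07). Plk2, a polo-like kinase, was the member called higher in haploid EpiSC-1, by 0.09. Polk, a translesion DNA polymerase, was low in both haploid lines, at 317, 299.7 and 347 in haploid EpiSC-1 and 284, 353 and 293 in haploid EpiSC-2. Its signals were 656, 698 and 716 in diploid EpiSC-1 and 1008, 1012 and 1095 in diploid EpiSC-2, so the haploid arrays overlapped each other and lay below all diploid arrays.

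Mitochondrial genes had a median deviation of -0.45, with 20 of 22 members (90.9%) called lower in haploid EpiSC-1 and 1 higher. Between the haploid lines 15 (68.2%) were called higher in haploid EpiSC-2. Sdha, the flavoprotein of succinate dehydrogenase, had signals of 6300.5, 5866 and 6234 in diploid EpiSC-1 and 5783, 5819.6 and 5979 in diploid EpiSC-2. They were 2569, 2582 and 2474 in haploid EpiSC-1 and 4169.6, 4265 and 4023 in haploid EpiSC-2. The lines thus ranked with haploid EpiSC-1 lowest and haploid EpiSC-2 below the diploid lines. The haploid lines differed by 0.71 ± 0.04 (SE; adjusted p = 3.84e-09), a call lost with the mean of all its probe sets (0.35, adjusted p = 0.271, the highest over the alternatives). Mrps30, of the mitochondrial ribosome, differed by 0.82 ± 0.05 (SE; adjusted p = 4.28e-09). Ndufs4, of respiratory complex I, differed by 0.70 ± 0.05 (SE; adjusted p = 6.04e-08). Cox7c, of cytochrome c oxidase, differed by 0.69 ± 0.08 (SE; adjusted p = 2.56e-06). Nnt, the transhydrogenase that supplies NADPH in mitochondria, differed by 0.22 ± 0.12 (SE; adjusted p = 0.120), which missed the threshold and passed it with centred arrays (0.38), with the mean of all probe sets (0.41) and without probe sets of the _x_at and _s_at kinds (0.47). Eci2, an enzyme of fatty acid oxidation, deviated by 0.20 in haploid EpiSC-1 and was the member called higher.

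Of 17 members for lipid, one-carbon and other metabolism, 11 (64.7%) were called lower in haploid EpiSC-1 and 1 higher, with a median deviation of -0.19, a share near that of all members. Between the haploid lines, 10 (58.8%) were called higher in haploid EpiSC-2 and 3 lower, these being Bphl, Acot13 and Arsb. Ggps1, which makes the geranylgeranyl chain for protein prenylation, differed by 1.20 ± 0.14 (SE; adjusted p = 4.28e-06), and by 0.53 on its second probe set. Outside this list, Idi1, an isomerase of the isoprenoid path to cholesterol, had signals of 3586, 4149.8 and 3617 in haploid EpiSC-1 and 8611, 8701 and 10107 in haploid EpiSC-2. In the diploid lines they lay between 7246 and 8452, so haploid EpiSC-1 stood below all others. The haploid lines differed by 1.27 ± 0.07 (SE; adjusted p = 1.74e-09). Hmgcs1, an earlier enzyme of the same path and the next to last member, differed by 0.30 ± 0.04 (SE; adjusted p = 9.27e-06). Akr1e1, an aldo-keto reductase near the start of the order, differed by 1.54 ± 0.13 (SE; adjusted p = 1.36e-07).

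The list of chromatin regulators held 13 members, the co-chaperone gene Sgtb among them. Of these, 9 (69.2%) were called lower in haploid EpiSC-1 and 2 higher, with a median deviation of -0.29. That share is close to that of all members. Jarid2, a partner of Polycomb repressive complex 2, had signals of 2229, 2369 and 2470.1 in haploid EpiSC-1 and 3473, 3506 and 3002 in haploid EpiSC-2. The 6 diploid arrays all lay above both. The haploid lines differed by 0.50 ± 0.06 (SE; adjusted p = 4.99e-06), and by 0.29 without probe sets of the _x_at and _s_at kinds. Dek, a chromatin-binding protein, differed by 0.55 ± 0.04 (SE; adjusted p = 8.31e-08), and Nsd1, a methyltransferase of histone H3 lysine 36, by 0.73 ± 0.06 (SE; adjusted p = 8.19e-08). The mean of all probe sets gave Dek a difference of 0.61 with an adjusted p of 0.144. It gave Nsd1 a difference of -0.01 with an adjusted p of 0.989. Both p-values were the highest over the alternatives of the gene. Outside these 13, the histone variant gene Macroh2a1 (entered under its older symbol H2afy) went against the line's pattern, with a deviation of 0.38 in haploid EpiSC-1. Its signals were 1394, 1383 and 1339 in diploid EpiSC-1, 1572, 1612 and 1609.8 in diploid EpiSC-2, 2799, 2781 and 2829.6 in haploid EpiSC-1 and 3323, 3346 and 3798 in haploid EpiSC-2. Every haploid array exceeded every diploid array for this gene.

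Genes of multigene clusters, taken by symbol, held 34 members with a median deviation of -0.48 in haploid EpiSC-1, of which 28 (82.4%) were called lower and 3 higher. Probe sets of such families can bind transcripts of close relatives, so single values are uncertain. Without these genes the median of the remaining 353 members was -0.33. The 26 zinc finger genes among the members, taken by symbol after their values were seen, were called lower in haploid EpiSC-1 in 26 of 26 cases, with a median of -0.56. On other chromosomes 280 such genes had a median of 0.03, with 82 called lower and 88 higher. In haploid EpiSC-2 the 26 had a median of -0.08, with 7 called lower and 2 higher, where 29.1% of all tested genes were called each way. Haploid minus diploid, their median was -0.76. Between the haploid lines 17 of them were called higher in haploid EpiSC-2, where 25.7% of all tested genes were. A cluster of these genes fills most of the stretch from Zfp369 to Zfp493 in the longest low run. Rsl1, a KRAB zinc finger repressor of male-specific liver genes, and its neighbour Zfp458 were low in both haploid lines. Rsl1 signals were 236, 264 and 307 in diploid EpiSC-1, 230.0, 149.6 and 149.8 in diploid EpiSC-2, 45.4, 53.3 and 52.1 in haploid EpiSC-1 and 54.1, 30.4 and 42.4 in haploid EpiSC-2. The haploid arrays lay under the signal threshold and overlapped each other. Zfp729b, further along the stretch, differed between the haploid lines by 0.67 ± 0.08 (SE; adjusted p = 7.48e-06), with haploid EpiSC-1 the lower.

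Developmental transcription factors had a median deviation of 0.28 in haploid EpiSC-1, with 5 of 7 members (71.4%) called higher and 2 lower. Sox4, an SRY-box factor, had signals of 6402, 7534 and 6886 in diploid EpiSC-1, 6931, 6938 and 7029 in diploid EpiSC-2, 9886, 9731 and 10226 in haploid EpiSC-1 and 9556, 9519.6 and 9079 in haploid EpiSC-2. Haploid arrays of both lines lay above all diploid arrays. Foxc1, a forkhead factor of mesenchyme, was higher in the haploid lines, at 219, 269.6 and 278 in haploid EpiSC-1 and 403, 411 and 359.6 in haploid EpiSC-2, while diploid arrays lay between 53.3 and 69.5. Nfil3, a basic leucine zipper repressor, had signals of 456, 379 and 505 in haploid EpiSC-1 and 127, 151 and 148 in haploid EpiSC-2, and the haploid lines differed by -1.65 ± 0.14 (SE; adjusted p = 2.13e-07). In the diploid lines its signals lay between, at 185, 207 and 167 in diploid EpiSC-1 and 196, 243 and 221 in diploid EpiSC-2. The fibroblast marker sum was also highest in the haploid lines, and its part in these values was not tested.

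Ligands, receptors and signalling genes were divided. Of 22 members, 10 (45.5%) were called lower and 8 (36.4%) higher in haploid EpiSC-1, with a median deviation of -0.06. Ptch1, the receptor for hedgehog ligands and itself a target of the pathway, had signals of 1116, 1071 and 1039.8 in diploid EpiSC-1 and 620.1, 571 and 646 in diploid EpiSC-2. They were 606, 671 and 621 in haploid EpiSC-1 and 1647, 1712 and 1690.1 in haploid EpiSC-2. Haploid EpiSC-1 overlapped diploid EpiSC-2 here, and haploid EpiSC-2 was the highest line. The haploid lines differed by 1.41 ± 0.06 (SE; adjusted p = 2.90e-10). Gas1, a hedgehog co-receptor, had signals of 3266, 2799 and 3134 in haploid EpiSC-1 and 2566, 3235 and 2237 in haploid EpiSC-2. The diploid signals were 361, 514 and 359 in diploid EpiSC-1 and 255, 276 and 264 in diploid EpiSC-2. The haploid arrays overlapped, and the difference between the haploid lines, -0.21 ± 0.14 (SE; adjusted p = 0.212), missed the threshold. Dapk1, a death-associated kinase, differed by 1.22 ± 0.10 (SE; adjusted p = 1.41e-07), and Edn1, the endothelin 1 precursor, by 1.59 ± 0.27 (SE; adjusted p = 0.000146).

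Inhba encodes the subunit of Activin A, the factor added to the medium. Its signals were 55.5, 69.3 and 55.6 in diploid EpiSC-1, 106, 112 and 142 in diploid EpiSC-2, 439, 369 and 389 in haploid EpiSC-1 and 289, 268 and 281 in haploid EpiSC-2. The 4 lines did not overlap on this probe set, and haploid EpiSC-1 was the highest. The haploid lines differed by -0.51 ± 0.15 (SE; adjusted p = 0.0102), which turned to 0.21 with an adjusted p of 0.748 when all probe sets of the gene were averaged. The call was also lost with centred arrays (-0.35, adjusted p = 0.0667) and without the first array of haploid EpiSC-1 (-0.44, adjusted p = 0.051). F2r, the thrombin receptor, and Pik3r1, a regulatory subunit of phosphoinositide 3-kinase, were also higher in haploid EpiSC-1, with deviations of 0.86 and 0.99.

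Adhesion, junction, matrix and cytoskeleton genes had a median deviation of 0.03, which turned to -0.11 with arrays centred on their medians. Of 17 members, 8 (47.1%) were called lower and 6 (35.3%) higher in haploid EpiSC-1. Emb, an immunoglobulin-family glycoprotein that carries lactate transporters to the membrane, had signals of 8197, 7917 and 8227 in diploid EpiSC-1 and 4444, 4453 and 4634 in diploid EpiSC-2. They were 915, 916 and 869 in haploid EpiSC-1 and 4005, 4007 and 3958 in haploid EpiSC-2. The 4 lines did not overlap, and the haploid lines differed by 2.15 ± 0.04 (SE; adjusted p = 1.53e-14). Ocln, the tight junction protein occludin, was low in both haploid lines. Its signals were 786, 791 and 822 in diploid EpiSC-1, 995, 1049.9 and 1080.2 in diploid EpiSC-2, 40.4, 51.9 and 53.1 in haploid EpiSC-1 and 105, 105 and 71.8 in haploid EpiSC-2. Haploid EpiSC-1 lay under the signal threshold on all 3 arrays. Marveld2, a tight junction protein whose gene follows Ocln in the order, deviated by -0.94 in haploid EpiSC-1. Nid1, a basement membrane protein, deviated by 1.15. Its signals were 1674, 1697 and 1523 in haploid EpiSC-1 and 1512, 1810.5 and 1566 in haploid EpiSC-2, which overlapped.

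**Figure D5:**
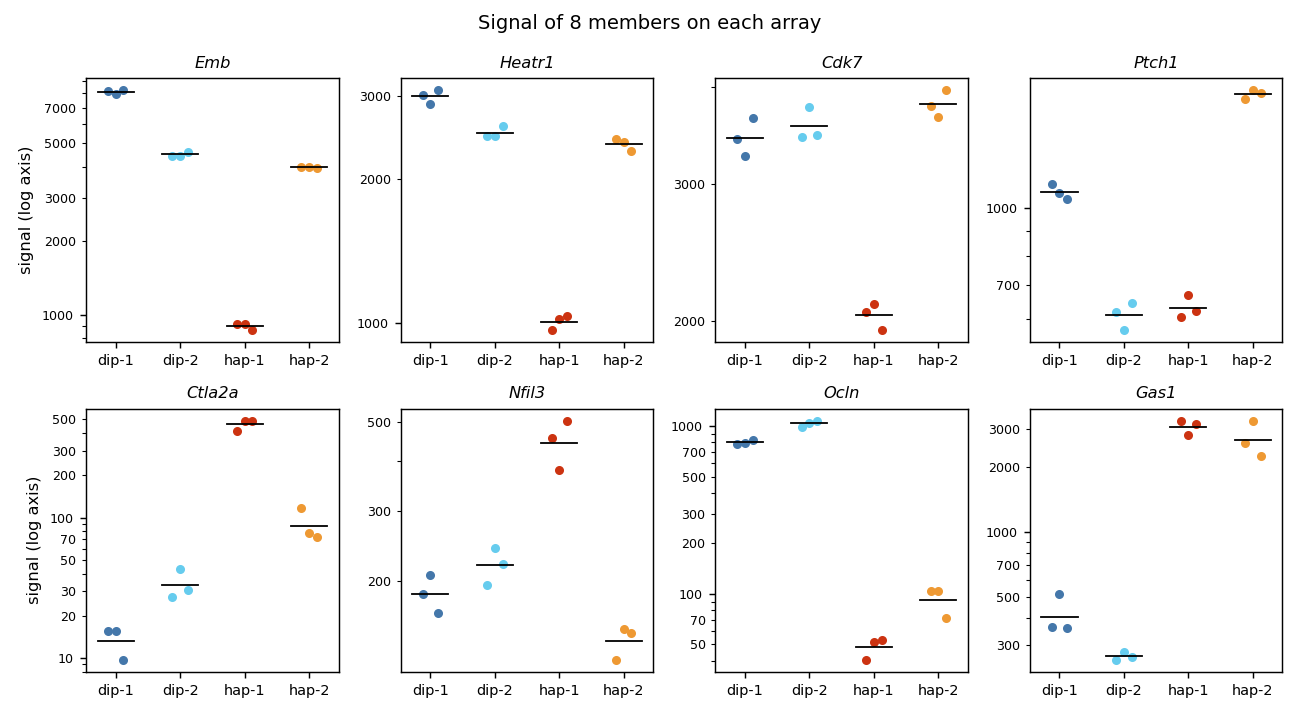
Signal of 8 members on each array (log axis, points are the 3 arrays of a line and bars their mean, with dip-1 and dip-2 for the diploid and hap-1 and hap-2 for the haploid lines). Emb, Heatr1 and Cdk7 are lowest in haploid EpiSC-1, Ctla2a and Nfil3 are highest there, and Ocln is low in both haploid lines.

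Members called higher in haploid EpiSC-1, against the line's pattern, numbered 61 (15.8%), where 37.5% of all tested genes were. They included large differences. The 18 members whose haploid EpiSC-1 arrays lay above all others were Pfkp, Lgals8, Ero1b, Lyst, Inhba, H2bc22, H1f2, Sox4, Tubb2a, Rbm24, Nfil3, Cplx2, Ctla2a, Serinc5, Arsb, Lhfpl2, F2r and Pik3r1. Ctla2a, a small protease inhibitor related to the propeptide of cathepsins, had signals of 15.5, 15.6 and 9.71 in diploid EpiSC-1, 27.2, 43.2 and 30.5 in diploid EpiSC-2, 411, 490.5 and 489 in haploid EpiSC-1 and 118, 77.7 and 72.7 in haploid EpiSC-2. The diploid arrays lay under the signal threshold, so the gene passed the filter through its haploid arrays. The haploid lines differed by -2.40 ± 0.29 (SE; adjusted p = 6.42e-06). H1f2, a linker histone, had signals of 295, 238 and 293 in diploid EpiSC-1, 1154, 1164 and 1193 in diploid EpiSC-2, 1366, 1324 and 1505 in haploid EpiSC-1 and 638, 604 and 582 in haploid EpiSC-2. Here diploid EpiSC-1 was the lowest line. Pfkp, the platelet form of phosphofructokinase in glycolysis, differed between the haploid lines by -0.84 ± 0.07 (SE; adjusted p = 1.81e-07), and by -0.29 on its second probe set.

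Some of the differences in this direction were small or rested on the probe set. Lgals8, a galectin, differed by -0.39 ± 0.13 (SE; adjusted p = 0.0189), and 4 alternatives lost the call, with adjusted p-values up to 0.151. Bphl, a serine hydrolase, differed by -0.39 ± 0.11 (SE; adjusted p = 0.00753) on its brightest probe set and by 0.87 with the mean of all its probe sets. Lhfpl2 lost its call with the mean of all probe sets (-0.74, adjusted p = 0.0846), and H2bc22, a histone H2B gene, without the second array of haploid EpiSC-2 (adjusted p = 0.0521). Next to these, Fam169a went with the line's pattern, at 294, 366 and 417 in haploid EpiSC-1 and 1227, 1219 and 1107 in haploid EpiSC-2, a difference of 1.74 ± 0.10 (SE; adjusted p = 4.28e-09). Fam172a differed by 1.79 ± 0.10 (SE; adjusted p = 2.65e-09), a call lost with the mean of all probe sets (0.81, adjusted p = 0.282).

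Haploid and diploid cells were compared with the 4 lines as a random block, since arrays of a line are not independent samples of a ploidy. The median difference of the members, haploid minus diploid, was -0.27, against 0.00 over all tested genes. Calls numbered 86, with 17.2% of all tested genes called. Of the members, 59 were called lower in haploid cells and 27 higher, which is 15.2% and 6.98%, where 7.54% and 9.69% of all tested genes were called. Without haploid EpiSC-1, 19 members (4.91%) were called lower, against 6.26% of all tested genes, and the median was -0.07. Without haploid EpiSC-2, 135 (34.9%) were called lower, against 11.9%, and the median was -0.49. With line means as the units, 4 (1.03%) were called lower and 7 (1.81%) higher, against 0.91% and 2.02%. All 6 haploid arrays lay below all 6 diploid arrays for 99 members, with 14.8% of all tested genes doing so, and above them for 48, with 17.1%. This difference is also one of strain.

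Ocln had the lowest difference, haploid minus diploid, at -3.78 ± 0.41 (SE; adjusted p = 1.36e-05), followed by Rsl1 at -2.24 ± 0.59 (SE; adjusted p = 0.0153) and Zfp458 at -2.04 ± 0.55 (SE; adjusted p = 0.0178). The calls for Rsl1 and Zfp458 were each lost in 1 alternative, with adjusted p-values up to 0.0699 and 0.134. Amph, a protein of endocytosis at membranes, differed by -1.84 ± 0.32 (SE; adjusted p = 0.000885) and Emb by -1.67 ± 0.42 (SE; adjusted p = 0.0112). The call for Emb was lost in 4 alternatives, with adjusted p-values up to 0.237, and that for Amph with line means as units (0.0562).

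Higher in haploid cells were Epdr1, an ependymin-related lysosomal protein, by 4.10 ± 0.94 (SE; adjusted p = 0.00665), and S1pr3, a receptor for sphingosine 1-phosphate, by 3.21 ± 0.38 (SE; adjusted p = 2.75e-05). Epdr1 signals were 598, 562 and 577 in haploid EpiSC-1 and 1035, 1097 and 994 in haploid EpiSC-2, while 4 of 6 diploid arrays lay under the signal threshold. Gas1 was higher by 3.12 ± 0.36 (SE; adjusted p = 2.09e-05), and Gadd45g, a stress-response gene, by 2.93 ± 0.44 (SE; adjusted p = 0.000277). Ctla2a was higher by 3.26 ± 0.83 (SE; adjusted p = 0.0128), a call lost in 2 alternatives (up to 0.186). Foxc1 was higher by 2.31 ± 0.39 (SE; adjusted p = 0.000709) and Nid1 by 2.30 ± 0.40 (SE; adjusted p = 0.000837). Differences against levels near the signal threshold are uncertain in size, since no detection calls were used. A gene under the threshold in some lines became a member only through the lines where it was high. This holds for Ctla2a through its haploid arrays and for Rsl1 through its diploid arrays. The direction of such differences is thus partly set by the filter.

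The diploid lines differed from each other without a shift of the chromosome. The median difference, diploid EpiSC-2 minus diploid EpiSC-1, was 0.02 for the members and -0.01 for all tested genes. Calls numbered 204, with 55.8% of all tested genes called. Of the members, 109 were called higher in diploid EpiSC-2 and 95 lower, or 28.2% and 24.5%, where 26.4% and 29.4% of all tested genes were called. Fbxw17, an F-box gene, had signals of 241, 236 and 290.0 in diploid EpiSC-1 and 20.6, 8.10 and 3.10 in diploid EpiSC-2, the lowest of the 4 lines, with 386, 360.4 and 352 in haploid EpiSC-1 and 496, 582 and 361 in haploid EpiSC-2. Dsp, the desmosomal linker desmoplakin, was highest in diploid EpiSC-2, at 3509, 3402 and 3445, against 806, 804 and 801 in diploid EpiSC-1. In haploid EpiSC-1 Dsp signals were 1776, 1830.1 and 1659, which overlapped those of haploid EpiSC-2 at 1819, 1815 and 1770.2.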

How the data were processed

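Total RNA was measured on 12 arrays, 3 labelled biological replicates for each of 4 lines. Per the submitters' processing notes, the deposited intensity values came from MAS5. They are on a linear scale, and the software version is not given in the sources used here. Each array had a 2% trimmed mean of 500.0. The values were used as log2 intensities with no pseudocount and no further scaling. Of 45101 probe sets, 64 controls were dropped, and 34945 had 1 gene symbol, 932 several and 9160 none in the platform annotation. Probe sets with 1 symbol were placed on chromosomes through the Entrez identifier in a gene table of GRCm38.p6, which matched 34741 of them and gave 18194 genes. The brightest probe set stood for a gene. No coordinates were taken from the gene table, only the order of genes.

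Lines were compared in R 4.3.3 with limma 3.58.1 (eBayes with an intensity trend), in a fit of 4 group means over all 11105 tested genes. Haploid and diploid cells were compared with line as a random block (statmod 1.5.0), with a correlation of 0.806 between arrays of a line. Benjamini-Hochberg adjustment ran over all tested genes, and tests were two-sided. The steps were tested on simulated data. The labels call the replicates of a line biological, without naming separate cultures, so p-values measure the spread between these arrays. No detection call or scan date entered, and precision is limited by the number of arrays.

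Members, gene lists and rules were chosen with earlier results of these data known. The named genes included the 12 highest and 12 lowest differences between the haploid lines, among called members whose arrays did not overlap. Among called members, they also included the 5 highest and 5 lowest deviations of each line and differences of haploid against diploid. None was taken from the comparison of the diploid lines. Added to these were up to 4 members of each role list with the lowest p between the haploid lines and the 3 members at each end of the order. The 3 genes on each side of the threshold and the genes Ocln, Gas1, Ptch1, Nnt, Il6st, Smad5, Jarid2 and Gmnn completed the set. Other genes in the text were chosen after their values were seen. Role lists were matched by current symbol, and matching through older symbols was an alternative added after seeing the data. Alternatives were another scaling, other signal filters, a pseudocount of 16, the mean of all probe sets, the replicate number as a block, and arrays or lines left out in turn.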

Additional observations from a re-analysis of the deposited data

How the results depend on the processing

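The low level of chromosome 13 in haploid EpiSC-1 kept its direction in every alternative run, and its size moved. The median deviation of haploid EpiSC-1 was -0.49 with arrays centred on their medians, -0.41 with quantile normalization, -0.24 with no signal filter, -0.39 with the stricter filter (mean log2 of at least 8.72), -0.32 with the mean of all probe sets and -0.33 without multigene clusters. Centring moved the median of all tested genes by 0.16 between the haploid lines and by -0.14 in haploid EpiSC-1. The median between the haploid lines was 0.57 with centring, 0.48 with quantile normalization, 0.31 with no filter and 0.52 with the stricter filter. Medians in diploid EpiSC-1 were 0.18 with centring, 0.081 with no filter and 0.14 with the stricter filter. Those in diploid EpiSC-2 were 0.19 with centring, 0.21 with quantile normalization (0.18 above all tested genes) and 0.11 with the mean of all probe sets. In haploid EpiSC-2 centring gave 0.11. Between the diploid lines the median was 0.059 with quantile normalization, 0.051 with no filter and -0.044 with the mean of all probe sets. In the last setting 67 members (17.3%) were called higher, against 17.5% of all tested genes.

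Counts of calls moved too, for the members and for all tested genes. Between the haploid lines, members called lower in haploid EpiSC-2 numbered 9 with centring and 9 with the stricter filter. Of all tested genes, 19.9% and 29.9% were. Members called higher in haploid EpiSC-1 numbered 37 and 31 under these settings, against 25.4% and 35% of all tested genes. With the stricter filter, members called lower numbered 59 in diploid EpiSC-1, 43 in diploid EpiSC-2 and 23 in haploid EpiSC-2. The shares of all tested genes were 33%, 35% and 30.6%. Between the ploidies, members called higher and lower numbered 49 and 91 with no filter, 10 and 34 with the stricter filter, and 7 and 4 with line means as units. Of all tested genes, 10% and 8.05% were called with no filter and 7.24% and 6.93% with the stricter filter. With line means as units the shares were 2.02% and 0.91%. Without haploid EpiSC-1 19 were called lower, and without haploid EpiSC-2 135, with a median of -0.49. Here 6.26% and 11.9% of all tested genes were called lower. The filters admit fewer or more genes (256 and 698 of the chromosome), and the cause of the other moves was not tested. With list entries matched through older symbols, a choice made after seeing the data, 2 metabolic members were called higher in haploid EpiSC-1.

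With single arrays left out, the median between the haploid lines stayed within 0.40 to 0.43, with 228 to 243 members higher and 15 to 20 lower. Of all tested genes, 23.4% to 26% were called higher and 27.7% to 31.3% lower. For haploid EpiSC-1 the median of the members was -0.36 to -0.34, with 54 to 63 higher and 249 to 267 lower. Here 34.3% to 37.6% and 30.2% to 32.3% of all tested genes were called. The ranges of median and member calls were 0.11 to 0.12, 177 to 195 and 87 to 97 for diploid EpiSC-1. They were 0.13 to 0.15, 171 to 197 and 57 to 71 for diploid EpiSC-2, and 0.09 to 0.10, 152 to 173 and 35 to 47 for haploid EpiSC-2. Between the diploid lines they were 0.01 to 0.04, 97 to 109 and 80 to 95, and between the ploidies -0.28 to -0.25, 25 to 28 and 50 to 57. The shares of all tested genes called higher and lower were 30.8% to 34.4% and 29.8% to 32.2% for diploid EpiSC-1. For diploid EpiSC-2 they were 27.3% to 30.3% and 31.1% to 33.8%, and for haploid EpiSC-2 25.8% to 29.2% and 25.8% to 29%. Between the diploid lines these shares were 23.7% to 26.3% and 26% to 29.5%, and between the ploidies 8.66% to 9.41% and 6.68% to 7.2%.

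Of 80 named genes compared between the haploid lines, 62 were called, and 47 of these kept call and direction in every alternative run. Of all tested genes, 56.6% were called. Many named genes were picked because they were called or had a low p in the same fit. Their counts therefore describe the named genes only and do not measure how stable the members are. The mean of all probe sets turned the direction of Inhba (0.21), Bphl (0.87) and Nsd1 (-0.0063), and the cause was not tested. Same-numbered arrays of different lines did not pair: the correlations of their deviations ran from -0.05 to 0.08 over 18 pairs. With the replicate number as a block, 243 members were called higher and 18 lower between the haploid lines. Of all tested genes, 25.9% and 30.9% were.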

Other observations

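Some members stood outside the pattern of haploid EpiSC-1 and showed a gradation over lines. Il6st, the shared receptor chain of LIF and interleukin 6, had signals of 397, 294 and 336 in diploid EpiSC-1, 497, 462 and 476 in diploid EpiSC-2, 769, 783 and 678 in haploid EpiSC-1 and 829, 869 and 772 in haploid EpiSC-2. It was higher in haploid cells by 0.95 ± 0.27 (SE; adjusted p = 0.0220), in a limma fit with line as a block. Tubb2a, a beta tubulin, had signals of 377, 361 and 380.0 in diploid EpiSC-1, 839.7, 1049.8 and 700.2 in diploid EpiSC-2, 1888, 1961 and 1826 in haploid EpiSC-1 and 1370.0, 1169 and 1370.5 in haploid EpiSC-2. The 4 lines did not overlap for Tubb2a. Vcan, the matrix proteoglycan versican, was higher in haploid cells by 0.75 ± 0.18 (SE; adjusted p = 0.00910), and the microtubule protein gene Map1b by 1.34 ± 0.28 (SE; adjusted p = 0.00374).

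Tert, the catalytic subunit of telomerase, had signals of 783, 810.4 and 696 in diploid EpiSC-1, 474, 342 and 408 in diploid EpiSC-2, 319.6, 261 and 145 in haploid EpiSC-1 and 225, 214 and 119 in haploid EpiSC-2. The haploid arrays overlapped each other and lay below all diploid arrays. The difference, haploid minus diploid, was -1.45 ± 0.67 (SE; adjusted p = 0.155) and missed the threshold with line as a block. Foxq1, a forkhead factor, differed between the haploid lines (haploid EpiSC-2 minus haploid EpiSC-1) by 1.60 ± 0.17 (SE; adjusted p = 2.25e-06), and Pou5f2, a POU-domain gene, by 2.01 ± 0.52 (SE; adjusted p = 0.00432), in the limma fit of 4 line means.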
